A study of Mus musculus with 1615 samples.

Results

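The genes Ndufa4l2, Ndufa4, Cox4i2, Cox4i1, Higd1b and Epas1 were followed across the cell classes of the mouse colon, with the pericyte, a cell of the wall of small vessels, at the centre. The 6 genes were taken by name, and their Ensembl identifiers were looked up among the 46517 gene rows of the count table. All 6 were found. The study sorted 1615 single cells from colons of 11 mice of 5 fluorescent reporter lines into wells on 13 plates, and each cell was sequenced as its own Smart-Seq2 library, a full-length method that counts reads and not molecules. Its title names an inventory of smooth muscle cells. Every pericyte-like and smooth muscle-like cell came from the line ACTA2GFP:CSPG4dsRED, which carries reporters named after Acta2 and Cspg4, from the females 20GG79:1 and 20GG95:3 and the male 20GG79:6. Blood endothelium-like cells, counting mice with at least 5, came from 20GG79:6 and from 5 males of the lines CSPG4dsRED (19CB27:3), PDGFRaH2bGFP (18CB109:10 and 18CB39:3) and PDGFRbGFP (19CB4:5 and another). Fibroblast-like cells came mostly from 20GG79:1 and 20GG79:6, with 5 cells each from 19CB4:5 and from 19CB38:5, a male of the line ACTA2GFP. The labels name no treatment and give 8 to 30 weeks as the age of every mouse, but males of 8 to 21 weeks are what the series describes. The tissue label is colon, but heart is the organ of the dissociation protocol. Of 5 heart muscle markers, 0 passed 50 CPM (counts scaled to a common library size) in pericyte-like cells, with sums of 0 to 16.4 CPM. In visceral smooth muscle-like cells 1 passed, Actc1, a cardiac actin gene, and the 5 summed to 312.5 to 500.7 CPM. How the sort gates were set is unknown here.

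Complex IV, cytochrome c oxidase, is the enzyme that passes electrons to oxygen at the end of the mitochondrial respiratory chain. Several of its subunits exist in a common form and in a form found in few tissues. Cox4i1 is the common form of subunit 4, and Cox4i2 is its alternative, known from lung and from oxygen-sensing cells and described as a gene that low oxygen induces. Ndufa4 was first listed under complex I and is now counted as a subunit of complex IV. Its relative Ndufa4l2 is known as a target of the hypoxia-inducible factors (HIF) that lowers oxygen use in cultured cells. Higd1b belongs to the HIG1 family, whose relatives assist complex IV, and is known as a marker of pericytes. Epas1 encodes the alpha subunit of HIF-2, a transcription factor that builds up when oxygen is low and is abundant in endothelium. RNA levels do not show how much factor protein is present or active.

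The genes of each pair are relatives, but their RNAs can be told apart by sequencing. The coding sequences of Ndufa4l2 and Ndufa4 were 67.36% identical where they align, and those of Cox4i2 and Cox4i1 68.99%. The longest run shared within a pair had 28 bases for Ndufa4l2 and Ndufa4 and 14 for Cox4i2 and Cox4i1. The windows of 90 bases printed here are the stretches of each pair with the most matching bases, shown because a read is hardest to assign there. Capitals mark bases that differ within the pair. The windows were read 5′ to 3′ from GENCODE transcripts on GRCm38. The first window is coding sequence of Ndufa4l2, and lies across spliced exons between chr10:127515462-127516445 on the plus strand. Its counterpart in Ndufa4 lies between chr6:11900589-11906045 on the minus strand. The windows of the second pair lie within single exons, at chr2:152760647-152760736 for Cox4i2 and at chr8:120673230-120673319 for Cox4i1, both on the plus strand.
Ndufa4l2: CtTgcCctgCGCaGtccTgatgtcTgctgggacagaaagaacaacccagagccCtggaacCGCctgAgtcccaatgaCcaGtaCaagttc
Ndufa4: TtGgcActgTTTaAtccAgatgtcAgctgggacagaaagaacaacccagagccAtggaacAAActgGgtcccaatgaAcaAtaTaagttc
Cox4i2: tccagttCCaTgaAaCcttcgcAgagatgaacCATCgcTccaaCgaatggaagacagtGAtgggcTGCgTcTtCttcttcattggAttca
Cox4i1: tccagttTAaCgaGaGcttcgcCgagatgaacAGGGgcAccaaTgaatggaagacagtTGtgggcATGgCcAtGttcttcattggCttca
Of the 90 bases, 17 differed between Ndufa4l2 and Ndufa4 and 21 between Cox4i2 and Cox4i1. Windows of 40 bases were also searched for in the transcripts of all other annotated genes, on both strands. None of the windows of Ndufa4l2, Cox4i2 or Higd1b was found elsewhere, against 0.409% of those of Ndufa4, in 2 processed pseudogenes, and 0.366% of those of Epas1. For Cox4i1 the share was 9.28%, most of it in Emc8, a gene on the opposite strand that overlaps its exons. Ndufa4l2 overlaps Shmt2 by 32 of 1095 exon bases, so a small part of the reads of Ndufa4l2 and Cox4i1 may belong to these neighbours.

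In GENCODE's annotation of GRCm38, Ndufa4l2 (ENSMUSG00000040280) lies at chr10:127514967-127517154 and Ndufa4 (ENSMUSG00000029632) at chr6:11900292-11907497. Cox4i2 (ENSMUSG00000009876) lies at chr2:152754173-152765037 and Cox4i1 (ENSMUSG00000031818) at chr8:120668222-120674207. Higd1b (ENSMUSG00000020928) lies at chr11:102835849-102838040 and Epas1 (ENSMUSG00000024140) at chr17:86753700-86833410. Over all cells Higd1b was the rarest, with 2957 counts in 120 cells, and Epas1 held the most, with 256026 counts in 1484 cells.

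Cells were clustered on marker genes and on variable genes that excluded the 6 genes and their pathway lists, and clusters were named from markers. The 170 pericyte-like cells came from 20GG79:1 (58 cells), 20GG79:6 (11 cells) and, for the rest, 20GG95:3, and fell into 2 clusters, 1 of 70 cells mostly from the 20GG79 mice and 1 of 100 cells from 20GG95:3. All 8 pericyte markers were above 50 CPM, and their sum ran from 13687 to 14160 CPM over the 3 mice. The 9 blood endothelial markers summed to 235.3 to 261.4 CPM, the 8 immune markers to 7.40 to 140.6 CPM and the 7 fibroblast markers to 3690 to 5471 CPM. The 7 vascular smooth muscle markers summed to 4503 to 6964 CPM and the 7 visceral ones, which share Acta2 and Myh11 with them, to 3478 to 6641 CPM, with Pcp4 at 0. Vascular smooth muscle-like cells in turn had 7 of the 8 pericyte markers above 50 CPM. These markers summed to 6542 to 7987 CPM there, beside 15358 to 17795 CPM for the 7 vascular ones. Their cluster stood above the other cells by 4.73 on vascular and by 3.61 on pericyte markers (mean log2 difference). The part of these other markers in the results was not tested. A cell had between 45388 and 1046988 gene counts (median 194180). The classes compared with pericyte-like cells were vascular smooth muscle-like, visceral smooth muscle-like, blood endothelium-like and fibroblast-like cells, which made up 5.70%, 29.3%, 22.2% and 11.7% of all cells, against 10.5% for pericyte-like cells. Counts were summed per mouse and class where a mouse had at least 5 cells of the class, and the mouse was the replicate. The pericyte-like sums hold 10644697 counts in 20GG79:1, 2536500 in 20GG79:6 and 11346470 in 20GG95:3. Most mice were sequenced on a plate of their own, so mouse, plate and, for endothelium, reporter line cannot be told apart.

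The isoforms found in few tissues were high in both mural classes of the vessel wall, and neither exceeded 89.9 CPM in a sum of any other named class. Of their common counterparts, Ndufa4 had its lowest class mean in pericyte-like cells, though its sums there overlapped those of other classes. Cox4i1 did not stand apart in pericyte-like cells. Ndufa4l2 had 574.3, 765.2 and 561.1 CPM in pericyte-like cells of 20GG79:1, 20GG79:6 and 20GG95:3. It had 336.99 CPM in vascular smooth muscle-like cells of 20GG79:1 and 345.8 CPM in those of 20GG95:3. In visceral smooth muscle-like cells, the muscle of the gut wall, the same mice had 1.36 and 1.32 CPM. Pericyte-like cells were thus highest in each of these mice, and their sums per mouse did not overlap with those of any other named class. The plates of 20GG95:3 differed. Its smaller plate had 325.6 CPM in pericyte-like and 190.8 CPM in vascular smooth muscle-like cells, and its larger plate 709.9 and 557.9 CPM in these classes. Pericyte-like cells were higher on each plate, but across plates the classes overlapped. The 6 endothelial sums lay between 0 and 2.86 CPM, with a median of 0.923 CPM. Among the other named classes the highest sum was 89.9 CPM, in fibroblast-like cells of 19CB4:5, which were 5 cells.

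Cox4i2, the alternative form of subunit 4, followed the same order. Pericyte-like cells had 285.3, 328.01 and 266.6 CPM in 20GG79:1, 20GG79:6 and 20GG95:3. Vascular smooth muscle-like cells had 168.5 and 160.5 CPM in 20GG79:1 and 20GG95:3, and visceral cells of these mice 0.998 and 1.30 CPM. The pericyte-like and vascular smooth muscle-like sums per mouse did not overlap, and no other named class exceeded 24.5 CPM. In 20GG95:3 the smaller plate had 191.8 CPM in pericyte-like and 104.4 CPM in vascular smooth muscle-like cells, and the larger plate 313.9 and 237.4 CPM in these classes, so the order held on each plate but the classes overlapped across plates. The endothelial median was 1.12 CPM over 6 mice, with 11.7 CPM as the highest.

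Ndufa4, the common counterpart of Ndufa4l2, had its lowest class mean in pericyte-like cells, at 25.2 ± 30.0 CPM (SD, n = 3 mice). It had 8.17 and 7.49 CPM in those of 20GG79:1 and 20GG79:6 and 59.8 CPM in those of 20GG95:3. Vascular smooth muscle-like cells had 72.04 CPM in 20GG79:1 and 30.9 CPM in 20GG95:3, so the mural classes of the vessel overlapped. Visceral cells had 86.7 and 138.2 CPM in the same mice, above both pericyte-like values. Endothelial sums lay between 51.8 and 272.9 CPM, with a median of 111.8 CPM, and overlapped the pericyte-like ones. Glia-like cells, next above in the order of class means, had 25.8 and 52.8 CPM and overlapped them too. The lowest sum of a named class was 6.09 CPM, in 5 lymphatic endothelium-like cells of 20GG79:6. The high pericyte-like value came from 1 of the 2 plates of 20GG95:3. Its larger plate gave 95.1 CPM from 66 cells, of which the 3 highest held 52.95% of its 661 counts, while its smaller plate gave 4.10 CPM from 35 cells. Visceral cells also stood higher on the larger plate, at 221.7 CPM, than on the smaller, at 48.2 CPM.

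Cox4i1, the common form of subunit 4, had 253.3, 365.5 and 281.1 CPM in pericyte-like cells. Vascular smooth muscle-like cells had 256.6 and 278.9 CPM, and visceral cells 274.5 and 354.6 CPM. Its 9 class means were ordered from 794 CPM in epithelium-like to 205.5 CPM in glia-like cells, and each class overlapped the next in that order. The pericyte-like mean of 299.9 ± 58.4 CPM (SD, n = 3 mice) stood at the sixth place.

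Higd1b was uneven among pericyte-like cells. It had 165.96 CPM in those of 20GG95:3, 57.02 CPM in those of 20GG79:1 and no count in the 11 cells of 20GG79:6, where 3 counts would have been 1.18 CPM. Vascular smooth muscle-like cells had 14.05 CPM in 20GG95:3 and 0.595 CPM, a single count, in 20GG79:1. Visceral cells had 0.489 and 0.0425 CPM, and no other named class exceeded 0.831 CPM in any mouse. Among the 66 pericyte-like cells of the larger plate of 20GG95:3, 3 held 60.8% of the Higd1b counts, so the level of this mouse rests on few cells.

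Epas1, which encodes the HIF-2 alpha subunit, was high in 3 classes of the vessel wall. It had 1053, 1046 and 1426 CPM in pericyte-like cells of 20GG79:1, 20GG79:6 and 20GG95:3, and 811.5 and 1670 CPM in vascular smooth muscle-like cells of 20GG79:1 and 20GG95:3. Blood endothelium-like cells had the highest mean, 1373 ± 218.4 CPM (SD, n = 6 mice), and these 3 classes overlapped. Visceral cells had 227.7 and 208.9 CPM, with no overlap with pericyte-like cells. Among named classes outside these 3 the highest sum was 506.5 CPM, in epithelium-like cells of 19CB27:3.

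**Figure D1:**
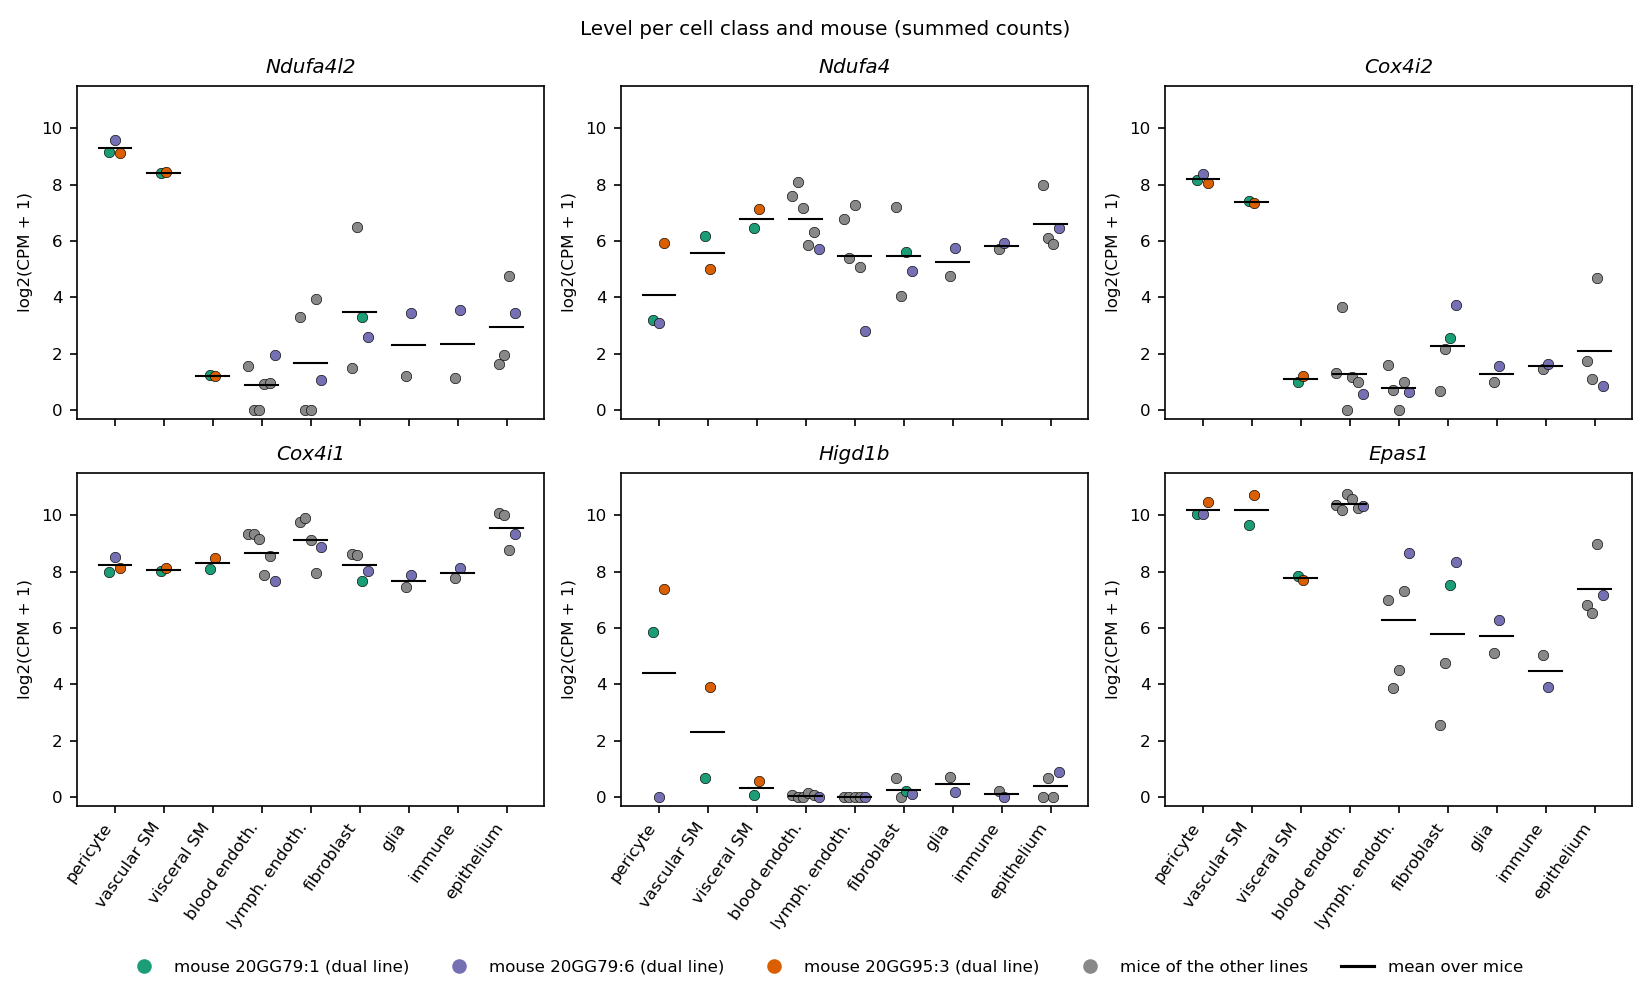
Level of each gene as log2(CPM + 1) by cell class (horizontal axis, SM for smooth muscle), with a point for each mouse with at least 5 cells of the class and a line at the mean of the log2 values. Ndufa4l2 and Cox4i2 are highest in the pericyte column, then in the vascular smooth muscle column. Cox4i1 is present in all columns, with class means from 205.5 CPM in glia to 794 CPM in epithelium, and Epas1 is high in blood endothelium too.

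The ratio within a pair does not depend on how a library is scaled, and per exon base it compares the levels of the genes. In pericyte-like cells Ndufa4l2 made up 98.9%, 99.2% and 92.2% of its pair in 20GG79:1, 20GG79:6 and 20GG95:3, a mean log2 ratio of 5.67 ± 1.84 (SD, n = 3 mice). Its share was 85.5% and 93.4% in vascular smooth muscle-like cells of 20GG79:1 and 20GG95:3, in visceral cells 1.94% and 1.19%, and in endothelium 0 to 6.51%. The plates of 20GG95:3 gave 99.01% (smaller) and 90.4% (larger) in pericyte-like cells, against 93.6% and 93.3% in vascular smooth muscle-like cells. Among the named classes the ratio was above 1 in every pericyte-like and vascular smooth muscle-like sum and, outside them, only in fibroblast-like cells of 19CB4:5.

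Cox4i2 held a smaller share of its pair in pericyte-like cells than Ndufa4l2 did of its own. It made up 68.9%, 63.8% and 65.1% of the subunit 4 pair in pericyte-like cells of 20GG79:1, 20GG79:6 and 20GG95:3, a mean log2 ratio of 0.96 ± 0.17 (SD, n = 3 mice). Vascular smooth muscle-like cells had 56.4% and 53.1%, visceral cells 0.710% and 0.714%, and endothelium 0 to 3.47%. The length used matters here. Per base of the longest coding transcript, a length chosen after seeing the data, the pericyte-like shares were 54.04%, 48.4% and 49.7% and the vascular ones 40.7% and 37.5%. Whether Cox4i2 RNA exceeded that of Cox4i1 in pericyte-like cells thus depended on the transcript length assumed. For the other pair Ndufa4l2 kept 98.5% to 85.96% in pericyte-like cells under that length.

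Within mice, the log2 ratio of Ndufa4l2 to Ndufa4 was higher in pericyte-like than in visceral cells by 12.11 in 20GG79:1 and 9.93 in 20GG95:3. Against vascular smooth muscle-like cells the difference was 3.91 in 20GG79:1 and -0.26 in 20GG95:3. The plates of 20GG95:3 parted in the same way, with 2.75 on the smaller and -0.56 on the larger, so the direction in this mouse depended on the plate. The mean over both mice was 3.33 without the larger plate and 1.67 without the smaller. For Cox4i2 and Cox4i1 the differences from visceral cells were 8.26 and 8.01, and those from vascular smooth muscle-like cells 0.78 and 0.72, in 20GG79:1 and 20GG95:3. These last were close to each other and pointed the same way in both mice, and on each plate of 20GG95:3 (1.18 on the smaller and 0.59 on the larger). With 2 mice an exact sign-flip test (2-sided) cannot go below p = 0.5. Pericyte-like and endothelial sums were compared over all mice, unpaired, in a test chosen after seeing the data. The log2 ratio averaged 5.67 ± 1.84 in pericyte-like cells (SD, n = 3 mice) and -7.39 ± 3.21 in endothelium (n = 6 mice) for Ndufa4l2 over Ndufa4. For Cox4i2 over Cox4i1 it averaged 0.96 ± 0.17 and -7.71 ± 2.41 in these groups. Each exact permutation test (2-sided, 84 regroupings) gave p = 0.0119, the smallest these numbers of mice can give, and as both pairs did so the adjusted value over the 2 tests is the same. Mouse 20GG79:6 was in both groups, which the test treats as separate mice. The ratios of the groups did not overlap, so this p-value follows from the numbers of sums alone. Reporter line and plate also differed between the pericyte-like mice and every endothelial mouse but 20GG79:6. The test therefore gives no support for a class difference beyond the values themselves.

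**Figure D2:**
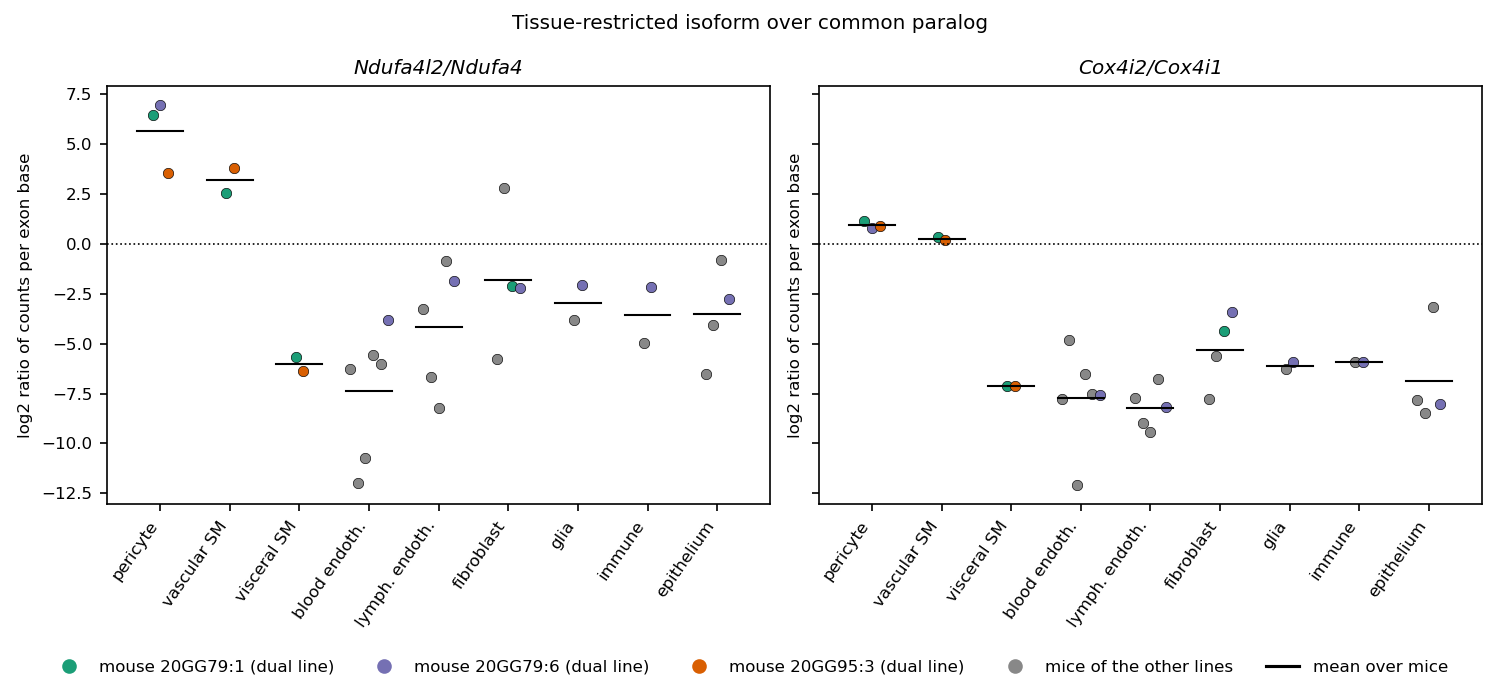
Log2 ratio of counts per exon base within each pair (vertical axis) by cell class, with a point for each mouse and a line at the mean. Points above the dotted line at 0 have more counts per exon base of the isoform found in few tissues. In the Cox4i2 panel these are the pericyte and vascular smooth muscle points, between 0.18 and 1.15. Per base of the longest coding transcript, not drawn, the pericyte ones lay between -0.09 and 0.23 and the vascular ones at -0.54 and -0.74.

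Ndufa4l2 was counted in 92.9% of pericyte-like cells (exact 95% interval 87.99% to 96.3%, counting error only), against 90.2% of vascular smooth muscle-like, 22.8% of visceral and 26.5% of endothelial cells. Ndufa4 was counted in 29.4% of pericyte-like cells (22.7% to 36.9%), against 68.5% of vascular smooth muscle-like and 88.2% of visceral cells. Of the 170 pericyte-like cells, 68.2% had counts of Ndufa4l2 and none of Ndufa4, 24.7% had both, 4.71% had Ndufa4 alone and 2.35% had neither. Of 92 vascular smooth muscle-like cells, 30.4% had Ndufa4l2 alone and 59.8% both. Pericyte-like cells were shallower, with a median of 119064 gene counts, against 169058 in vascular smooth muscle-like and 179308 in visceral cells. With every cell thinned to 45000 counts, Ndufa4 was found in 22.9% of pericyte-like cells, against 51.1% of vascular smooth muscle-like and 77.2% of visceral cells. Ndufa4l2 was then found in 89.4% of pericyte-like cells, against 86.96% of vascular smooth muscle-like and 9.30% of visceral cells. Thinned, 72.9% of pericyte-like cells had Ndufa4l2 alone and 16.5% both, against 47.8% and 39.1% of vascular smooth muscle-like cells, so the classes stood closer than at full depth. These shares describe cells pooled over mice and were not tested.

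Cox4i2 was counted in 75.9% and Cox4i1 in 88.2% of pericyte-like cells, and most cells had both. Whether they shared cells more often than these percentages imply was not tested. Of the pericyte-like cells 67.6% had both, 8.24% had Cox4i2 alone, 20.6% had Cox4i1 alone and 3.53% had neither. Higd1b was counted in 31.8% of pericyte-like cells (24.8% to 39.3%), against 20.7% of vascular smooth muscle-like and 5.07% of visceral cells. Across pericyte-like cells within a mouse, Ndufa4l2 and Cox4i2 varied together in part, with a Spearman correlation of log2(CPM + 1) of 0.46 over 58 cells of 20GG79:1, 0.72 over 11 cells of 20GG79:6 and 0.48 over the cells of 20GG95:3. Ndufa4l2 and Ndufa4 had correlations of -0.37, -0.01 and -0.16 in the same mice, and Cox4i2 and Cox4i1 -0.01, 0.15 and -0.05. Cells of a mouse share plate and preparation, and these values are descriptions.

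**Figure D3:**
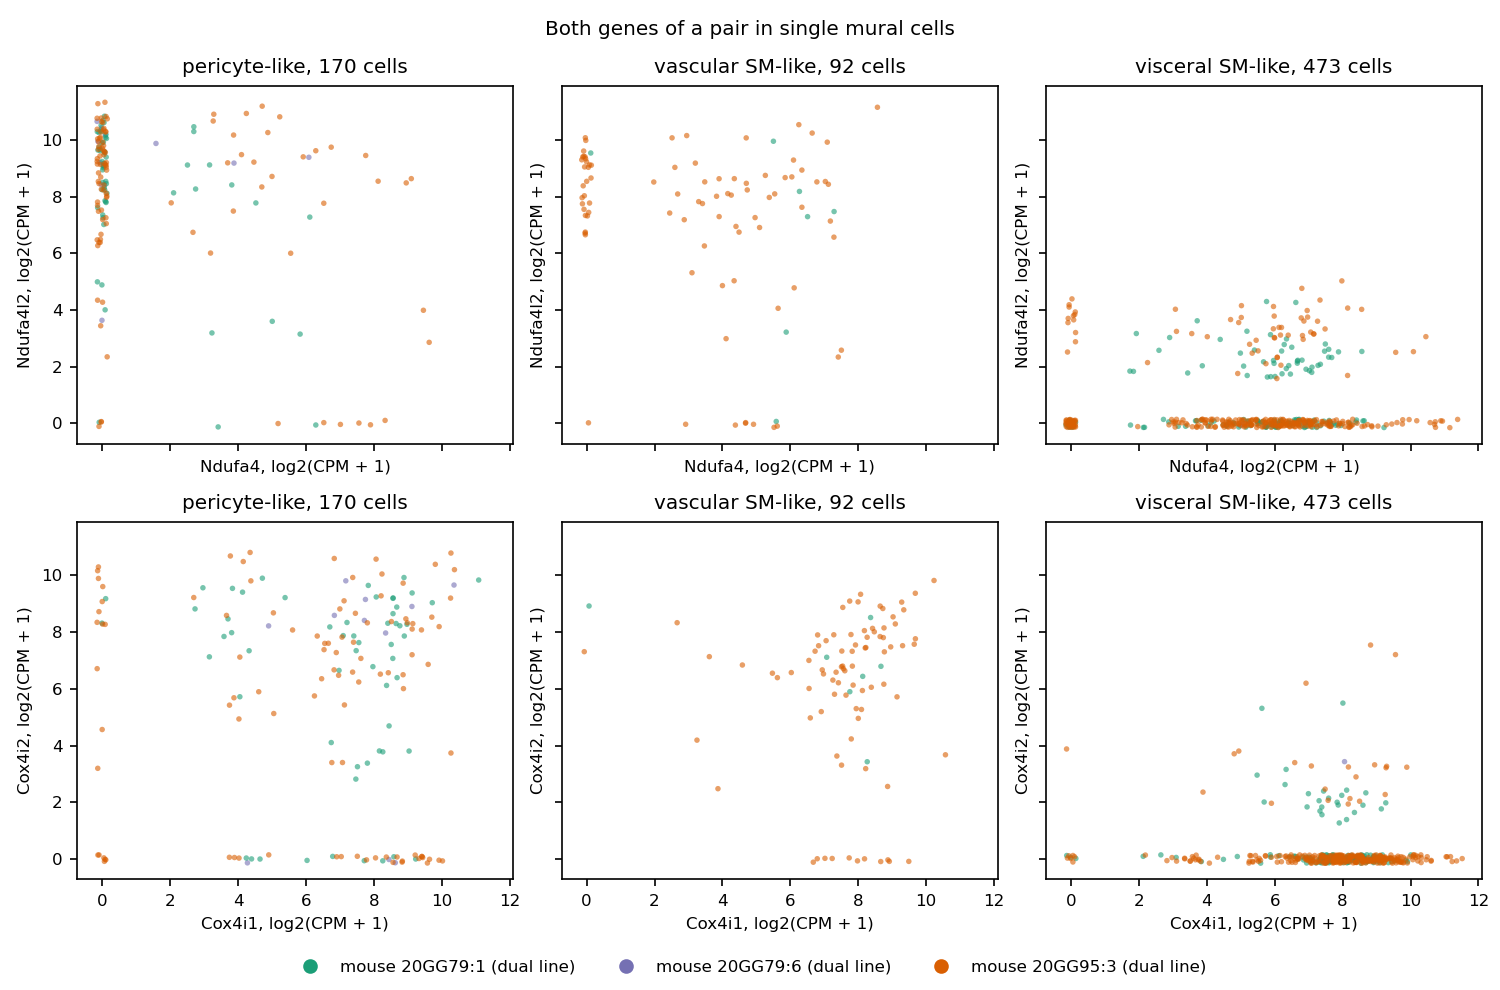
Single cells of the 3 mural classes, with the common gene on the horizontal axis and the isoform found in few tissues on the vertical axis, both as log2(CPM + 1), coloured by mouse and spread slightly at 0. Most pericyte-like cells lie on the left edge of the upper row, with Ndufa4l2 and no Ndufa4 (68.2%), while most lie inside the lower panel with both Cox4i2 and Cox4i1 (67.6%).

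Over all genes, pericyte-like cells were tested against those of visceral smooth muscle in 20GG79:1 and 20GG95:3. Of the 6 genes, Ndufa4l2, Cox4i2, Higd1b and Epas1 passed as higher in pericyte-like cells, against 0.495% of the 15971 genes tested. None passed as lower, against 0.432% of the genes. Ndufa4l2 averaged 567.7 ± 9.35 CPM in pericyte-like and 1.34 ± 0.0311 CPM in visceral cells (SD, n = 2 mice). Its log2 fold change was 8.56 ± 0.39 (SE, edgeR adjusted p = 0.0101). Cox4i2 averaged 275.95 ± 13.2 CPM in pericyte-like and 1.15 ± 0.211 CPM in visceral cells, with a log2 fold change of 7.75 ± 0.47 (adjusted p = 0.0171). For Higd1b it was 8.92 ± 0.83 (adjusted p = 0.0247), and for Epas1 2.33 ± 0.28 (adjusted p = 0.039). Ndufa4 had a log2 fold change of -2.45 ± 0.71 (adjusted p = 0.244), lower in both mice, and Cox4i1 one of -0.39 ± 0.27 (adjusted p = 0.635). With DESeq2 Ndufa4 passed as lower (-2.38, adjusted p = 0.0046). With 1 residual degree of freedom, these SEs lean on the spread of other genes. In a fit over all classes, which shares a wider spread, each of the 4 lost the call (Ndufa4l2 at adjusted p = 0.324) at about the same fold change, and no gene in the table was called. Without the larger plate of 20GG95:3, Higd1b (10.82, adjusted p = 0.112) and Epas1 (2.29, adjusted p = 0.0562) lost the call, and Ndufa4l2 and Cox4i2 did not. Higd1b also lost it without the mouse as a block (adjusted p = 0.0712) and at the coarser clustering resolution (adjusted p = 0.507), and Epas1 in deeper cells alone (adjusted p = 0.0675). Without either mouse, in fits that pool all classes, each of the 4 lost the call at adjusted p = 1.

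Against vascular smooth muscle-like cells 0 of the 6 genes passed in edgeR, and 1, Higd1b, had an unadjusted p under 0.05. Of all 13788 genes 1.73% passed, 0.66% as higher in pericyte-like cells and 1.07% as lower. Both isoforms had higher values in pericyte-like cells of both mice. How many of all genes kept these classes apart in the same way was not counted. Ndufa4l2 averaged 567.7 ± 9.35 CPM in pericyte-like and 341.4 ± 6.22 CPM in vascular smooth muscle-like cells (SD, n = 2 mice). Its log2 fold change was 0.52 ± 0.43 (adjusted p = 0.927). Cox4i2 averaged 275.95 ± 13.2 and 164.5 ± 5.63 CPM in these classes, with 0.54 ± 0.55 (adjusted p = 0.992). The SEs, which also lean on the spread of other genes, allow changes in either direction, so likeness was not shown. Higd1b stood at 4.47 ± 1.36 (adjusted p = 0.0575), Ndufa4 at -1.29 ± 1.60 (adjusted p = 0.998), Cox4i1 at -0.21 ± 0.51 (adjusted p = 0.998) and Epas1 at -0.13 ± 0.31 (adjusted p = 0.998). Higd1b passed with DESeq2 (4.37, adjusted p = 0.00227) with deeper cells alone (4.70, adjusted p = 0.0213) and with adjustment over all genes (adjusted p = 0.0474). In these libraries 13 of 20 dissociation and stress genes were lower in pericyte-like cells, against 1.07% of all genes, among them the immediate-early genes Nr4a1 (-2.53), Btg2 (-2.29), Fos (-1.86) and Atf3 (-2.86), and their part in the result was not tested. Mouse 20GG79:1 gave 7 vascular smooth muscle-like cells to this comparison. The 3 highest cells held 82.9% of their Ndufa4l2 counts, and the 3 highest for Cox4i2 held 77.4% of its counts.

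Only 20GG79:6 held 5 or more cells of both pericyte-like and endothelial classes, so these were compared in 1 fit over all classes with the mouse as a block. Ndufa4l2 and Cox4i2 passed as higher in pericyte-like cells, against 0.333% of 21336 genes. Ndufa4l2 averaged 633.5 ± 114.3 CPM in pericyte-like cells (SD, n = 3 mice) and 1.11 ± 1.12 CPM in endothelium (n = 6 mice). Its log2 fold change was 8.95 ± 1.66 (SE, edgeR adjusted p = 0.0099). Cox4i2 averaged 293.3 ± 31.5 CPM in pericyte-like and 2.66 ± 4.48 CPM in endothelial cells, with 8.45 ± 1.77 (adjusted p = 0.0178). Ndufa4 (-2.84 ± 1.40, adjusted p = 0.515), Cox4i1 (0.34 ± 0.65, adjusted p = 1), Higd1b (3.78 ± 3.99, adjusted p = 0.874) and Epas1 (-1.93 ± 1.03, adjusted p = 0.585) did not pass. These fitted changes also carry differences between mice taken from the other classes, and for Epas1 the class means were close, at 1175 ± 217.5 CPM in pericyte-like and 1373 ± 218.4 CPM in endothelial cells. Both calls were lost without 20GG79:1 (Ndufa4l2 at adjusted p = 0.105) and without 20GG79:6 (adjusted p = 0.992), and Cox4i2 also without 20GG95:3 (adjusted p = 0.0779). Higd1b had no count in either class of 20GG79:6, and without the block it passed too (10.31, adjusted p = 0.000951).

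Fibroblast-like cells could be compared in 20GG79:1 and 20GG79:6. Ndufa4l2, Cox4i2 and Epas1 passed as higher in pericyte-like cells, against 0.561% of 13908 genes (1.06% in either direction), and Higd1b was too low to be tested. Ndufa4l2 averaged 669.8 ± 135.02 CPM in pericyte-like and 6.92 ± 2.67 CPM in fibroblast-like cells (SD, n = 2 mice). Its log2 fold change was 6.71 ± 0.84 (SE, edgeR adjusted p = 2.53e-12). With n = 2 mice, the SEs and p-values of this comparison lean on the spread of other genes. Cox4i2 averaged 306.7 ± 30.2 CPM in pericyte-like and 8.54 ± 5.12 CPM in fibroblast-like cells, with 5.39 ± 1.10 (adjusted p = 0.000264). Epas1 averaged 1049.7 ± 5.34 CPM in pericyte-like and 251.8 ± 97.6 CPM in fibroblast-like cells, with 2.20 ± 0.53 (adjusted p = 0.00486). Ndufa4 had -2.18 ± 1.96 (adjusted p = 0.954) and Cox4i1 0.50 ± 0.72 (adjusted p = 0.966). All 3 calls were lost without the block (Ndufa4l2 at 6.75, adjusted p = 0.0705) and with the spread shared over all classes (5.64, adjusted p = 0.663), and also without 20GG79:1 (adjusted p = 0.838 for each) and without 20GG79:6 (adjusted p = 1 for each), in fits that pool all classes. Epas1 lost its call further with DESeq2 (adjusted p = 0.201), with RLE factors (adjusted p = 0.0676) and without mixed cells (adjusted p = 0.112), so it was lost under 7 of 12 alternatives. The 4 comparisons share the pericyte-like sums and are not independent of each other, and classes and tests rest on the same cells.

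Of the pathway lists, genes other than the 6 are named below for their role where none passed, a choice made with their values known. Of 11 common nuclear subunits, 0 passed in edgeR against visceral, vascular, endothelial or fibroblast-like cells, with median log2 fold changes of -0.39, -0.42, -0.47 and 0.25, beside medians of -0.12, 0.36, -0.38 and -0.34 over all genes tested. At an unadjusted p under 0.05 there were 1, 0, 1 and 0 of the 11, and DESeq2 called Ndufa4 against visceral cells as given above. Counts of list genes at an unadjusted p, here and below, stand without the share of all genes at that cut. They are therefore not read as more or fewer than among all genes. Ndufa4 was the lowest of the 11 against visceral cells, and the other 10 lay between -1.07 (Cox5a) and 0.02 (Cox6b1). Of 9 subunit isoforms known from few tissues, 5, 3, 6 and 4 could be tested against visceral, vascular, endothelial and fibroblast-like cells. Of these Ndufa4l2 and Cox4i2 passed, as higher, in all but the vascular comparison, against 0.495%, 0.333% and 0.561% of all genes in the other 3. Cox6b2, a form known from testis, averaged 13.1 CPM in pericyte-like and 15.6 CPM in visceral cells (-0.41 ± 0.90, adjusted p = 0.908). Cox7a1, a form known from heart and muscle, was below 1.5 CPM in both classes. mt-Co1, the catalytic subunit encoded in mitochondria, averaged 2795 CPM in pericyte-like and 1864 CPM in visceral cells (0.43 ± 0.18, adjusted p = 0.4).

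Of the HIG1 family and factors that join respiratory complexes, Higd1b alone passed against visceral cells, of 4 tested, beside 0.495% of all genes called higher. Higd1a, a relative that low oxygen induces, averaged 40.3 CPM in pericyte-like and 60.9 CPM in visceral cells (-0.83 ± 0.50, adjusted p = 0.569). Cox7a2l, a factor that joins complexes III and IV, averaged 161.7 CPM in pericyte-like and 150.8 CPM in visceral cells (-0.08 ± 0.34, adjusted p = 0.96). In complexes I (36 subunits) and II and III (13 subunits) 0 genes passed in any of the 4 edgeR comparisons, with at most 4 and 1 at an unadjusted p under 0.05 in a comparison. Of 15 complex V subunits 2 were lower in pericyte-like than in vascular smooth muscle-like cells, against 1.07% of all genes, namely Atp5b (-1.19 ± 0.30, adjusted p = 0.00534) and Atp5a1 (-1.28 ± 0.33, adjusted p = 0.00944), which form the catalytic head of the ATP synthase, and 0 passed elsewhere.

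Among 10 HIF factors and oxygen sensors Epas1 passed against visceral and fibroblast-like cells, beside 0.495% and 0.561% of all genes called higher. In edgeR 0 others passed, with 1 other at an unadjusted p under 0.05 in each of these comparisons. Hif1a, which encodes the alpha subunit of HIF-1, had a log2 fold change of 0.59 ± 0.27 against visceral cells (adjusted p = 0.446). Vhl, whose product marks the alpha subunits for breakdown, averaged 26.8 CPM in pericyte-like and 66.6 CPM in visceral cells (-1.74 ± 0.75, adjusted p = 0.412). Of 32 HIF target genes listed, 31, 31, 32 and 29 could be tested against visceral, vascular, endothelial and fibroblast-like cells, and 0 passed in edgeR. At an unadjusted p under 0.05 there were 6, 4, 3 and 4, with no share of all genes at that cut set beside them. The median log2 fold changes of the targets tested were -0.21, -0.28, -0.53 and 0.49, beside the medians over all genes given above. Against visceral cells 11 of the 31 were on the higher side in pericyte-like cells and 20 on the lower. The targets with the smallest p there were Plod2, an enzyme of collagen (21.0 CPM in pericyte-like and 106.3 CPM in visceral cells, adjusted p = 0.107), and Slc2a1, a glucose transporter (40.9 and 159.7 CPM in these classes, adjusted p = 0.14). They were picked after seeing their values. With pericyte-like cells of 20GG79:6 included, which this comparison lacks, the pericyte-like means were higher, at 55.5 CPM for Plod2 and 164.2 CPM for Slc2a1. Higd1a and Egln3 stand on more than 1 of these lists.

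**Figure D4:**
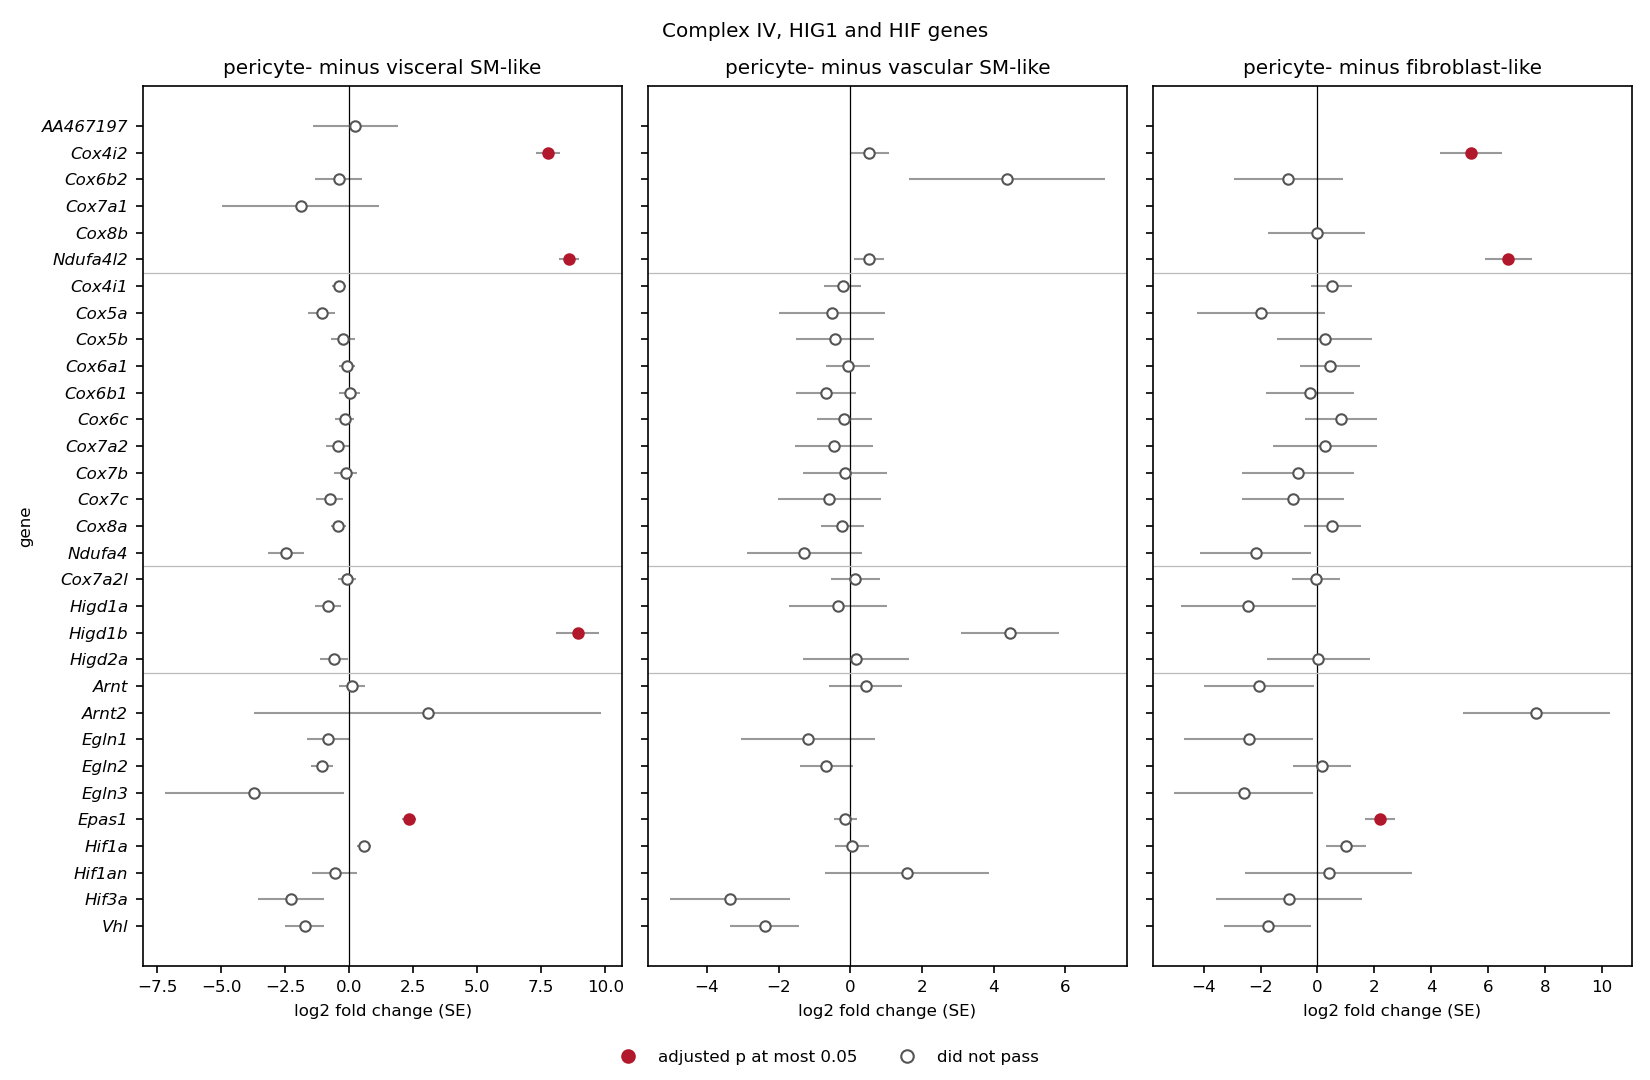
Log2 fold change (point) with SE (bar) of subunit isoforms known from few tissues, common complex IV subunits, HIG1 family genes and HIF factors, top to bottom, in 3 comparisons of pericyte-like cells. Filled points passed an adjusted p of at most 0.05 in edgeR and are Ndufa4l2, Cox4i2, Higd1b and Epas1; genes with no point in a panel were too low to be tested there.

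Genes whose levels most resembled those of the 4 vessel wall genes were ranked over 30 sums of mouse and class, by Pearson's r of log2(CPM + 1) among 12922 genes. These values are descriptions, and the sums share libraries and mice. For Ndufa4l2 they were Olfr558 (0.897), an olfactory receptor gene, Nrip2 (0.893), Heyl (0.893), a Notch target, Gm17276 (0.887) and Cox4i2 (0.885). For Cox4i2 they were Olfr558 (0.926), Foxs1 (0.915), a forkhead factor, Nrip2 (0.915), Adra2a (0.911), an adrenergic receptor, and Gm17276 (0.911). For Higd1b they were Nmur1 (0.930), a neuromedin U receptor, Tmem182 (0.901), Sema5b (0.887), a semaphorin, and Trpc4 (0.800), a cation channel. For Epas1 they were Apbb2 (0.901), Esam (0.847), an adhesion molecule of endothelium, Fam13c (0.844), Trib2 (0.831) and Bcam (0.828), a laminin receptor. Of the genes named, Olfr558, Nrip2, Nmur1 and Bcam had been used for clustering. Among the 6 genes themselves r was 0.63 between Ndufa4l2 and Higd1b, 0.31 between Ndufa4l2 and Epas1, and -0.51 between Ndufa4l2 and Ndufa4.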

How the data were processed

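Colon cells of 11 mice were sorted into plates and sequenced with Smart-Seq2, per the labels' protocols. The authors deposited a table of raw read counts per gene and cell, with spike-ins. The submitters' processing notes name bcl2fastq, Bowtie, Bowtie2, featureCounts, Subread and GRCm38/mm10; their roles, versions and treatment of multiply matching reads are unknown here. Reads were not collapsed to molecules.

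Spike-ins (1.88% of counts) were left out, and CPM was computed over 46517 gene rows, of which 512 had no symbol. All 1615 cells had at least 20000 counts and 1000 genes. Cells were clustered with scanpy 1.11.5 (2084 genes, 20 components, 15 neighbours, Leiden resolution 1) without the 6 genes and the pathway lists. Of 18 clusters, those with 3 or more detected markers and a lead of at least 1 on the log2 scale were named, a margin chosen after seeing the clusters. No doublet caller was run; 327 cells with 2 or more markers of another class were left out as an alternative.

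Deposited counts were summed per mouse and class (at least 5 cells) and tested with edgeR 4.0.16 (quasi-likelihood, TMM, low-count filter, R 4.3.3). Classes of the same animal were paired by a block for the mouse. Benjamini-Hochberg adjustment ran over all tested genes not used in clustering, with a threshold of 0.05. The endothelial comparison was planned within mice, but as 1 mouse held both classes it was read from a fit over all classes. Ratios per exon base used 0.5 added counts. DESeq2 1.42.0, RLE factors, no filter, no block, other cells and each mouse left out were tried. On simulated counts for the visceral comparison (16965 genes), edgeR found 33.0% of genes changed by 2 and 94.9% of those changed by 4 on the log2 scale. Every simulated gene had the same spread, with no differences between mice or plates, so these shares do not give the power in the real counts. Named are the 6 genes, up to 4 genes per list and direction that passed, by smallest p, and the 5 genes most like each of Ndufa4l2, Cox4i2, Higd1b and Epas1, of which 1 is not reported here. The members and lists were chosen with earlier results of these data known. Nothing says beyond the mouse labels how the animals were handled. With so few mice, edgeR p-values lean on the spread of other genes and do not measure the spread between these mice alone.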

Additional observations from a re-analysis of the deposited data

Results flagged for a closer look

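In groups of 4 to 10 mice, 5 values of the 23 groups looked at stood far from the others of their group. The rule sets about 1 in 20 groups apart by chance if values are normally distributed. CPM need not be, so no excess over chance is claimed. Cox4i2 had 11.7 CPM in blood endothelium-like cells of mouse 18CB109:10, and the next of the 6 mice had 1.47 CPM. In epithelium-like cells of 19CB27:3 Cox4i2 had 24.5 CPM, with 2.33 CPM as the next of 4 mice, and Epas1 had 506.5 CPM, with 141.3 CPM as the next. These were 6 cells, with 16 counts of Cox4i2. Ndufa4 had 251.2 CPM in epithelium-like cells of a male of the line PDGFRbGFP, with 87.3 CPM as the next of 4 mice. Ndufa4l2 had 89.9 CPM in fibroblast-like cells of 19CB4:5, with 8.81 CPM as the next of 4 mice.

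Clusters left without a name also held the isoforms. In unnamed cluster 10, 25 cells of 20GG79:6 with markers of pericytes and of immune cells, Ndufa4l2 had 410.3 CPM, Cox4i2 166.1 CPM and Epas1 1002 CPM, and Ndufa4l2 made up 97.7% of its pair per exon base. In unnamed cluster 11, of which 94 cells came from 20GG79:6, with markers of visceral smooth muscle and of fibroblasts, Ndufa4l2 had 32.1 CPM and Cox4i2 13.7 CPM in that mouse, where Ndufa4l2 made up 44.9% of its pair. The 6 cells of this cluster from 20GG79:1 had 204.7 CPM of Ndufa4l2, 88.9% of its pair, and 0.469 CPM of Cox4i2, a single count. These cells entered no comparison.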

How the results depend on the processing

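How many genes were called moved with the processing, and the cause was not tested. Shares are of the genes tested under each setting, with the number of genes relative to the reported number where it moved by over 1.5 times. Against visceral smooth muscle-like cells 0.927% were called. DESeq2 called 9.50% (10.2 times as many genes), no filter 1.62% (3.03 times), adjustment over all genes 1.62% (1.75 times), deeper cells 0.264% (0.277 times), cells without mixed lineage 0.545% (0.581 times), leaving out the smaller plate of 20GG95:3 1.70% (1.74 times) and leaving out its larger plate 0.282% (0.277 times). The spread shared over all classes gave 0 genes (1234 at an unadjusted p under 0.05, edgeR). Against vascular smooth muscle-like cells (1.73%), DESeq2 called 3.37% (1.94 times), the shared spread 0.00469% (1 gene), resolution 0.5 0.854% (0.481 times), leaving out the smaller plate 0.810% (0.423 times) and the larger plate 0.395% (0.205 times). Against endothelium (0.628%), DESeq2 called 5.31% (8.46 times), no filter 0.904% (2.19 times) and adjustment over all genes 1.08% (1.72 times). Against fibroblast-like cells (1.06%), DESeq2 called 4.22% (3.97 times), RLE factors 0.633% (0.595 times; 57 higher and 31 lower, against 78 and 70), the shared spread 0.00469% (1 gene), adjustment over all genes 1.88% (1.76 times), cells not mixed 0.472% (0.419 times) and cells without mixed lineage 1.79% (1.64 times).

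Without the replicate block for the mouse, which pairs classes of the same animal, 0.116% of genes were called against vascular smooth muscle-like cells (0.0669 times as many), 7.68% against endothelium (10.4 times) and 0 against fibroblast-like cells (1211 at an unadjusted p under 0.05, edgeR). With a mouse left out, 0 to 0.268% of genes were called against endothelium and 0 in the other comparisons, where up to 693, 638 and 916 genes had an unadjusted p under 0.05 (visceral, vascular and fibroblast). These fits pool all classes, so a lone sum is assumed to vary like the others.

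For the 6 genes, 7 alternative values changed direction, 37 lost a call and 5 gained one, among them Ndufa4 against visceral cells with DESeq2 (-2.38, adjusted p = 0.0046). With a mouse left out, Ndufa4 ran from -2.90 to 0.63 and Epas1 from -0.55 to 0.21 against vascular cells, and Higd1b from -2.65 to 4.72 against endothelium. Also against endothelium, Cox4i1 was -0.012 with no filter and -0.66 with no block, and Higd1b -0.026 without mixed cells and -0.26 without mixed lineage.

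The within-mouse difference of log2 Ndufa4l2 over Ndufa4 was 8.76 at resolution 0.5 against visceral cells (11.02 as reported). Against endothelium (10.79) it was 10.30 with 5 added counts, 10.69 from means of cells, 10.04 without mixed cells and 10.73 in deeper cells. With a mouse left out it ran from 9.93 to 12.11 (visceral), -0.26 to 3.91 (vascular) and 8.55 to 9.19 (fibroblast). That of Cox4i2 over Cox4i1 against visceral cells (8.13) was 7.65 from means of cells, 7.63 at resolution 0.5, 7.90 without the smaller plate and 9.07 without the larger. Against vascular cells (0.75) these were 0.87, 0.65, 0.68 and 0.98, with 0.67 without mixed cells, 0.84 without mixed lineage and 0.55 in deeper cells. Against endothelium (8.40) it was 7.54 with 5 added counts, 7.94 from means of cells, 8.42 without mixed cells and 8.29 in deeper cells. With a mouse left out it ran from 8.01 to 8.26 (visceral), 0.72 to 0.78 (vascular) and 4.24 to 5.53 (fibroblast). Without mixed cells, too few vascular cells remained for a fit, so the 0.67 for Cox4i2 over Cox4i1 is not a mean over both mice. Depth limits Higd1b and Ndufa4 most, with 0 and 19 counts in pericyte-like cells of 20GG79:6.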

Other observations

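Among subunits encoded in mitochondria, mt-Co1 had 2795 CPM in pericyte-like cells and 1864 CPM in those of visceral smooth muscle, while mt-Co2 had 0.705 and 0.415 CPM and mt-Co3 1.13 and 0.894 CPM in these classes. Levels of these genes are therefore not comparable with each other in this table. Against fibroblast-like cells 1 of 20 dissociation and stress genes passed in edgeR, Nr4a1, an immediate-early gene, with 1194 CPM in pericyte-like and 286.1 CPM in fibroblast-like cells (log2 fold change 2.27 ± 0.51, adjusted p = 0.00195), beside 0.561% of all genes called higher. The median log2 fold change of the 20 was 0.77, with 15 on the higher side in pericyte-like cells, beside a median of -0.34 over all genes tested. Mouse 20GG79:6 had 49.2% of its cells in unnamed clusters and 20GG79:1 1.67%.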
